A study of Mus musculus with 4 samples.

Results

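Inhibitory receptors of the B cell surface and the tyrosine phosphatases they recruit were compared between wild-type peritoneal B1a cells and wild-type splenic follicular B2 cells. The 10 genes are the 8 receptor genes Siglecg, Cd22, Cd72, Cd5, Cd300a, Pirb, Lair1 and Ceacam1 and the 2 phosphatase genes Ptpn6 and Ptpn11. They were given as a list of receptors with an immunoreceptor tyrosine-based inhibitory motif (ITIM), or an inhibitory role, and of their phosphatases, with Fc receptors left out, and they are 10 of the 20599 gene symbols in the deposited RNA-Seq tables. All 10 passed the filter on low counts.

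The study profiled DNA methylation and transcription in B1a and B2 cells with and without the DNA methyltransferase DNMT3A. Only its wild-type RNA-Seq libraries were used here, 2 from B1a cells and 2 from B2 cells, and the Dnmt3a-deficient libraries were not analysed here. The comparison asks how the 2 B cell sub-lineages differ in the genes of this inhibitory system. All 4 libraries came from untreated C57BL/6 mice with a wild-type genotype, whose age is 4 weeks by the labels. The methods name C57BL/6J mice as the controls of the study and, for these sorts, 2 littermate controls a group, without giving the littermates' alleles. On age the sources differ, since the methods make the follicular B2 donors older than the B1a donors, whereas the labels and the study's repertoire data from its RNA-Seq reads give both cell types the same age. B1a cells were sorted from the peritoneal wash as CD23- IgM+ CD5+ B cells and B2 cells from the spleen as IgD hi IgM lo CD21+ B cells. The groups thus differ at once in cell type, in tissue and, if the sorting methods hold, in age, which cannot be told apart. The methods also give a range of sorted cell numbers for the B1a samples that reaches below the fixed number of the B2 samples. Cell input may thus differ between the groups too, and its part was not tested. In sorted bulk RNA, fewer cells of a type and less RNA per cell cannot be told apart either. The labels do not tie libraries to mice, but the methods give 2 animals for the 2 libraries of each group, and p-values measure the spread between these libraries.

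Engagement of the B cell receptor lets the kinase LYN phosphorylate the ITIM tyrosines in the tails of nearby inhibitory receptors. The phosphorylated motifs recruit the SH2 domain phosphatases SHP-1, the product of Ptpn6, and SHP-2, the product of Ptpn11, and SHP-1 in particular removes phosphate from signalling proteins and dampens the response. B1a cells are known for weak calcium responses to receptor cross-linking, and Siglec-G and CD5 are the inhibitors best known from this sub-lineage.

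The 4 receptors whose transcripts passed the test between the cell types carry the motif in their coding sequence, and these sites are shown because they are what the receptors share. The pattern searched was 6 codons long, a codon for isoleucine, valine, leucine or serine, any codon, a tyrosine codon, any 2 codons, and a codon for isoleucine, leucine or valine. Coding sequences were taken from the GENCODE M21 annotation of GRCm38 and are written 5′ to 3′ on the coding strand with the tyrosine codon in capitals. In Siglecg the matches nearest the end of the coding sequence were at codons 659 and 682, both in exon 12 of 12, at chr7:43417979-43417996 and chr7:43418048-43418065 on the plus strand.
Siglecg codon 659: ctccacTATgctgctctc
Siglecg codon 682: tctgatTACacagaggtc
In Cd22 there were 4 matches in the last 120 codons, on the minus strand, at chr7:30867494-30867511 in exon 12 of 14, chr7:30867033-30867050 in exon 13, and chr7:30866600-30866617 and chr7:30866540-30866557 in exon 14.
Cd22 codon 783: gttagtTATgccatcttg
Cd22 codon 817: gtcactTACtcggtgata
Cd22 codon 843: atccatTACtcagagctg
Cd22 codon 863: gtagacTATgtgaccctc
CD72 is a type II membrane protein with its tail at the start of the chain, and of its 4 matches the 2 nearest the start lay in exons 1 and 2 of 9, at chr4:43454498-43454515 and chr4:43454306-43454323 on the minus strand.
Cd72 codon 7: atcacgTATgcagacctg
Cd72 codon 39: ctcaccTACgagaatgtg
The last 2 matches of Pirb were in exon 15 of 15, at chr7:3712786-3712803 and chr7:3712696-3712713 on the minus strand.
Pirb codon 794: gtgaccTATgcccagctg
Pirb codon 824: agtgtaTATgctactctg

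The same search found 2 matches in the last 120 codons of Cd300a, Lair1 and Cd5, 1 in Ceacam1 and 3 in Siglecg. It found none in those of Cd72, whose other matches were at codons 95 and 118. The phosphatase genes, which are not receptors, also held 1 match each in the last 120 codons, at codon 538 of Ptpn6 and 551 of Ptpn11. Other receptor matches before that window were at codon 5 of Cd22, 196 of Siglecg, 100 of Cd300a, and 109 and 713 of Pirb. Of 21504 coding genes, 49.2% held the pattern somewhere, 19.1% held at least 1 match and 4.49% at least 2 matches in the last 120 codons, so a match is a description of the letters and does not show a working motif. The genes of Siglecg, Cd22, Pirb, Lair1 and Ceacam1 all lie on chromosome 7, Cd72 on chromosome 4, Cd300a on chromosome 11 and Cd5 on chromosome 19.

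SHP-1 and SHP-2 are recruited to phosphorylated ITIMs by their SH2 domains, and they share the signature of their active site, which is shown here. Their transcripts went in opposite directions, but the difference of Ptpn11 did not pass the test. The 8 codons of the protein tyrosine phosphatase signature (histidine, cysteine, any 2, glycine, any 2, arginine) were split between exons 11 and 12 of 16 in both genes, within chr6:124722063-124724964 for Ptpn6 and within chr5:121143614-121144537 for Ptpn11, both on the minus strand. The catalytic cysteine codon is in capitals.
Ptpn6 codon 455: catTGCagcgctggcatcggccgc
Ptpn11 codon 463: cacTGCagcgctgggattggccgg
This signature occurred in 115 coding genes, 0.535% of those searched. The coding sequences of Ptpn6 and Ptpn11 are each 1794 bases long and were identical at 66.3% of 1722 aligned bases.

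The libraries held 11032732 to 18588623 expected counts, and 3 counts, the floor used here, corresponded to 0.157 to 0.270 CPM (TMM-scaled counts per 1000000 counts), which covers counting error only. The B1a replicates resembled each other less than the B2 replicates did, with a Pearson correlation of log2 CPM across genes of 0.836 against 0.966, and 200 genes with 100 counts or more in a B1a replicate had 3 or fewer in its partner, against 4 such genes in B2 cells. Across genes, which are not independent replicates, correlations between the groups lay between 0.788 and 0.858. Summed B cell markers were high in all 4 libraries, at 15084 and 14191 CPM in B1a cells and 12234 and 12317 CPM in B2 cells. Much of each sum was Cd74, at 8921 and 8432 CPM in B1a cells and 7388 and 7444 CPM in B2 cells. Of the 7 listed genes, Ms4a1 and Cd79a passed as higher in B1a cells, Pax5 and Ebf1 as higher in B2 cells, and 3 did not pass. Summed macrophage markers were higher in the B1a libraries, at 242 and 296 CPM against 77.5 and 81.8 CPM, with 10 of 11 listed genes in the tables. Of these 10, Lyz2 alone passed the test, but 9 had a log2 fold change above 0 and the median was 1.71. Emr1 stood at 27.7 and 39 CPM in B1a cells against 8.24 and 11.9 CPM in B2 cells, whereas Csf1r stood at 16.9 and 21.9 CPM against 21.2 and 18.3 CPM, and Cd14 was at 0 in 1 B2 library. Erythroid markers summed to 78.8 and 504 CPM in B1a cells and 36.1 and 80.8 CPM in B2 cells, with Hba-a2 passing the test. Among mast cell markers, Fcer1a was at 0 in all 4 libraries, and the list summed to 24.1 and 11.8 CPM against 1.47 and 0.941 CPM. Cpa3 stood at 11.5 and 1.71 CPM in B1a cells against 0 and 0.941 CPM in B2 cells. Kit stood at 6.72 and 6.65 CPM against 1.47 and 0 CPM. None of the 3 mast cell markers tested passed, but their median log2 fold change was 3.74.

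Transcripts of 5 of the 10 genes differed between the cell types by the quasi-likelihood test of edgeR, with p-values adjusted after Benjamini-Hochberg and a threshold of 0.05. Siglecg and Pirb were higher in B1a cells, and Cd22, Cd72 and Ptpn6 were higher in B2 cells. Of all 12078 genes tested, 5.74% passed in either direction, 4.24% as higher in B1a cells and 1.5% as higher in B2 cells. At an unadjusted p under 0.05 the test passed 9 of the 10 genes, against 20.9% of all genes. None of the 10 overlapped between the groups, with 4 higher in B1a and 6 in B2 cells, but this was also so for 54.3% of all genes tested (25.3% higher in B1a and 29% in B2 cells). Without B1a replicate 1 all 10 genes passed, and without B1a replicate 2 all but Cd300a, 9 of 10, when 4064 and 6241 of all genes passed. In those fits the single B1a library left was assumed to vary like the B2 libraries.

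**Figure D1:**
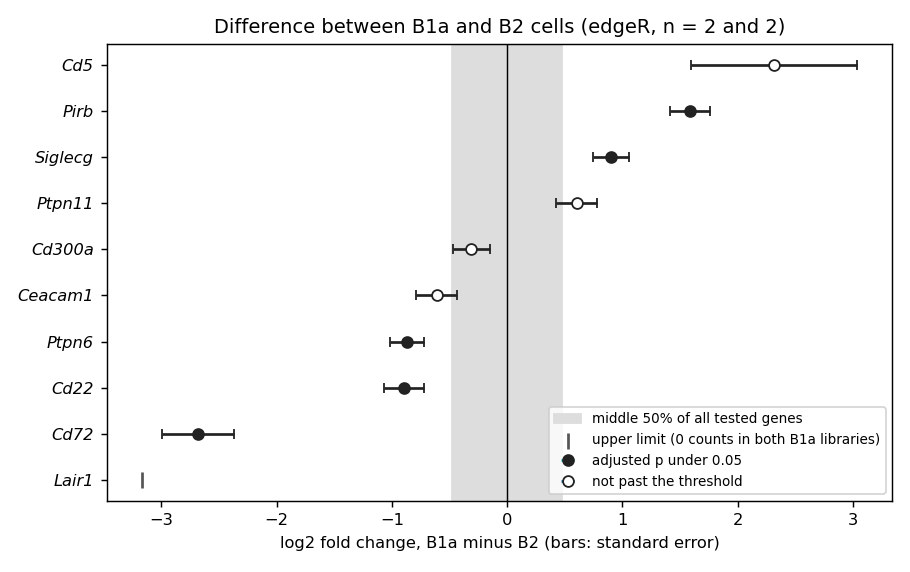
Log2 fold change of B1a minus B2 (x axis) for the 10 genes, with bars for the standard error, filled points for an adjusted p under 0.05 and a grey band between the lower and upper quartile of all tested genes. Siglecg (0.90) and Pirb (1.59) lie to the right, and Ptpn6 (-0.87), Cd22 (-0.89) and Cd72 (-2.68) to the left. Lair1 had 0 counts in both B1a libraries and is drawn as an upper limit set by the floor of 3 counts.

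Among the receptors that bind sialic acid, Siglecg and Cd22 went in opposite directions. Siglecg encodes Siglec-G, a sialic acid-binding lectin that restrains calcium signalling in B1a cells, and lies at chr7:43408192-43418349 on the plus strand. It measured 966 and 742 CPM in the B1a libraries and 477 and 440 CPM in the B2 libraries. Both B1a values were above both B2 values, although the B1a replicates were further apart. The means were 854 ± 158 CPM in B1a and 458 ± 26.3 CPM in B2 (SD, n = 2 each), and the log2 fold change was 0.90 (SE 0.16, edgeR quasi-likelihood adjusted p = 0.030), or 1.86-fold. On the TPM scale with a pseudocount of 1 the log2 difference was 0.64 and no longer passed (limma adjusted p = 0.106). That scale also moved the median of all genes by -0.27.

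CD22, encoded at chr7:30865404-30880342 on the minus strand, is the sialic acid-binding receptor that associates with the B cell receptor and recruits SHP-1. Its transcripts measured 1087 and 780 CPM in B1a cells and 1806 and 1663 CPM in B2 cells. Both B2 libraries were above both B1a libraries. The means of 934 ± 217 CPM and 1734 ± 101 CPM (SD, n = 2 each) gave a log2 fold change of -0.89 (SE 0.17, edgeR quasi-likelihood adjusted p = 0.0417), which is 1.86-fold lower in B1a cells. This call was close to the threshold, and with gene entries left unsummed the adjusted p from the same test was 0.0517. Cd22 has only 1 entry, so its own counts were the same in that fit and only the set of tested entries around it differed.

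The order of Siglecg and Cd22 differed between the cell types. Per transcript length, in TPM (transcripts per 1000000, a level scaled by length), Siglecg stood at 925 and 693 in the B1a libraries against 625 and 437 for Cd22, and at 537 and 487 in the B2 libraries against 1224 and 1109 for Cd22. The ratio of Siglecg to Cd22 in TPM was thus 1.48 and 1.58 in B1a cells and 0.439 and 0.439 in B2 cells. The mean ratios of 1.53 ± 0.0740 and 0.439 ± 0.000603 (SD, n = 2 each) differed 3.49-fold without overlap. An exact two-sided permutation test gave p = 0.33, the smallest p that 2 libraries against 2 allow.

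Cd72 showed the largest difference among the 5 genes that passed. It encodes a C-type lectin-like inhibitory receptor that binds the semaphorin CD100, and lies at chr4:43447724-43455102 on the minus strand. It measured 53.1 and 28.5 CPM in B1a cells and 252 and 273 CPM in B2 cells. The lower B2 value was several times the higher B1a value, and the B1a replicates differed 1.86-fold from each other. The means were 40.8 ± 17.4 CPM and 262 ± 14.8 CPM (SD, n = 2 each), and the log2 fold change was -2.68 (SE 0.31, edgeR quasi-likelihood adjusted p = 0.00842), or 6.42-fold lower in B1a cells. In TPM, the ratio of Cd72 to Cd22 was 0.150 and 0.104 in B1a cells and 0.402 and 0.475 in B2 cells. The mean ratios, 0.127 ± 0.0320 and 0.439 ± 0.0515 (SD, n = 2 each), differed 3.50-fold without overlap (exact two-sided permutation p = 0.33, the smallest possible). The span of Cd72 overlaps that of Tesk1 by 352 of its 7379 bases, and Tesk1 measured 22 and 30.8 CPM in B1a cells and 84.1 and 87.4 CPM in B2 cells. Whether the counting used strand is not given in the sources used here, so reads from the shared bases cannot be assigned, and their part in the result was not tested.

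Pirb was the receptor most above its B2 level in B1a cells among those that passed. The paired immunoglobulin-like receptor PIR-B binds MHC class I and is expressed by B cells and myeloid cells, and its gene lies at chr7:3712505-3720382 on the minus strand. It measured 287 and 241 CPM in B1a cells and 96.5 and 79.6 CPM in B2 cells. Both B1a libraries were well above both B2 libraries, and replicates were close in either group. Means of 264 ± 32.3 CPM and 88.1 ± 12 CPM (SD, n = 2 each) gave a log2 fold change of 1.59 (SE 0.18, edgeR quasi-likelihood adjusted p = 0.00742), or 3-fold. Pirb is near-identical in parts to the activating Pira genes, between which reads can be divided. The related Lilra5, Lilra6, Pira1, Pira2 and Pira6 summed to 132 and 140 CPM in B1a cells and 84.5 and 75.5 CPM in B2 cells, and together with Pirb to 419 and 382 CPM against 181 and 155 CPM, so the family sum did not overlap between groups either. Individual Pira genes were unsteady, with Pira1 at 0 and 50.7 CPM in the B1a replicates. Macrophage markers were higher in the same libraries as Pirb (242 and 296 CPM in sum, against 77.5 and 81.8 CPM). So were mast cell markers (24.1 and 11.8 CPM in sum, against 1.47 and 0.941 CPM). The part of either in the result was not tested.

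The promoters of Cd72 and Pirb are shown because both hold the letters GAGGAAGT, a core of sites for the lymphoid and myeloid factor PU.1, although their transcripts went in opposite directions. Each runs from 250 bases before to 50 bases after the annotated start (RefSeq, GRCm38.p6, minus strand, written 5′ to 3′), at chr4:43454577-43454876 for Cd72 and chr7:3720333-3720632 for Pirb, with the match in capitals. In Cd72 the match began at position -49 and was on the opposite strand, so it reads ACTTCCTC. In Pirb it began at position -120 on the gene's strand.
Cd72 promoter: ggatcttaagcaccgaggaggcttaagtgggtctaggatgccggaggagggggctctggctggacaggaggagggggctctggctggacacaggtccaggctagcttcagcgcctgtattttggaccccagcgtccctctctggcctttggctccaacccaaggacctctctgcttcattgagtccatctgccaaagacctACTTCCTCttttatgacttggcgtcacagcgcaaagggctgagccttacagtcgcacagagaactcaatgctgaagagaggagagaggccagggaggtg
Pirb promoter: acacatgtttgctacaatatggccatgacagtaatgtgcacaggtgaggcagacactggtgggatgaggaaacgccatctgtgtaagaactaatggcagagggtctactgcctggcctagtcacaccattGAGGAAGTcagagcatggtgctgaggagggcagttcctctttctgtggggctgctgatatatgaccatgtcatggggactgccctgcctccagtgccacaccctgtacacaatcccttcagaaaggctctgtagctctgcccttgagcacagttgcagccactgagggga
Both strands of 32851 promoter windows were searched. GAGGAAGT occurred in 3.2% of them, and in those of Cd5, Cd72 and Pirb among the 10 genes. TCCCNNGGGA, an EBF-type site, occurred in 0.904% of the windows, and in those of Cd22 and Ceacam1. CAGGTG, an E-box, occurred in 20.2%, and in those of Cd22, Cd5, Pirb and Ptpn6. An NF-kB-type site of 10 letters occurred in 0.155% and in none of the 10 genes' windows. All 10 genes had at least 1 promoter window in the table.

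The 4 remaining receptors did not pass the test. CD5, a scavenger receptor family protein that dampens B cell receptor signalling, was part of the B1a sort gate, so its level is a check of the sort and not a finding. Cd5, at chr19:10718107-10739026 on the minus strand, measured 15.9 and 22.4 CPM in B1a cells and 5.46 and 2.25 CPM in B2 cells. The direction was that of the gate, but the levels were low and the B2 replicates differed 2.43-fold. The means, 19.1 ± 4.61 CPM and 3.86 ± 2.27 CPM (SD, n = 2 each), gave a log2 fold change of 2.32 (SE 0.72, edgeR quasi-likelihood adjusted p = 0.146). Summed T cell markers overlapped between the groups, at 51.5 and 26.4 CPM in B1a cells against 42.5 and 45.3 CPM in B2 cells, and none of the 7 tested passed. Cd4 and Cd28 were at 0 in both B1a libraries, while Cd3d stood at 14.6 and 18.3 CPM in B1a cells against 15.7 and 15.4 CPM, and Cd8a at 23.8 and 4.32 CPM against 15 and 16.2 CPM. The part of T cell RNA in the Cd5 level was not tested.

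CD300a is an inhibitory receptor for phosphatidylserine and phosphatidylethanolamine, and Cd300a lies at chr11:114889152-114901946 on the plus strand. Its values were 123 and 105 CPM in B1a cells and 142 and 140 CPM in B2 cells. The groups did not overlap, but were close. The log2 fold change was -0.31 (SE 0.16, edgeR quasi-likelihood adjusted p = 0.358), from means of 114 ± 12.8 CPM and 141 ± 1.46 CPM (SD, n = 2 each).

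Ceacam1, at chr7:25461702-25477647 on the minus strand, encodes a cell adhesion molecule that binds itself on neighbouring cells and carries an inhibitory tail in its long isoforms. It measured 77.5 and 71.6 CPM in B1a cells and 108 and 120 CPM in B2 cells. Both B2 libraries were higher, by less than the test required. Means of 74.6 ± 4.21 CPM and 114 ± 8.64 CPM (SD, n = 2 each) gave a log2 fold change of -0.61 (SE 0.18, edgeR quasi-likelihood adjusted p = 0.129). The deposited tables give 4 transcripts for this gene, and isoforms with and without the inhibitory tail were not separated here.

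Lair1, at chr7:4007073-4073567 on the minus strand, encodes the collagen receptor LAIR-1. It had 0 counts in both B1a libraries, where the floor of 3 counts a library is on average 0.269 CPM after scaling. In the B2 libraries it had 22 and 56 counts, or 1.91 and 2.93 CPM. The B2 mean was 8.98 times the B1a floor, which covers counting error only and not the spread between libraries. At these low counts the difference did not pass (edgeR quasi-likelihood adjusted p = 0.149). Such zeros were more common in B1a cells in general, with 208 of the tested genes (1.72%) at 0 in both B1a libraries against 22 (0.182%) in both B2 libraries.

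The phosphatases of the receptors also went in opposite directions. Ptpn6, which encodes SHP-1 and lies at chr6:124720707-124738709 on the minus strand, measured 451 and 356 CPM in B1a cells and 767 and 710 CPM in B2 cells. Both B2 libraries lay above both B1a libraries. The means, 403 ± 67.2 CPM and 738 ± 40.02 CPM (SD, n = 2 each), gave a log2 fold change of -0.87 (SE 0.15, edgeR quasi-likelihood adjusted p = 0.0283), or 1.83-fold lower in B1a cells. Ptpn11, which encodes SHP-2 and lies at chr5:121130533-121191397 on the minus strand, measured 185 and 150 CPM in B1a cells and 116 and 105 CPM in B2 cells. Here the B1a libraries were the higher ones, without overlap. The log2 fold change was 0.60 (SE 0.17), or 1.52-fold, and did not pass (edgeR quasi-likelihood adjusted p = 0.127), from means of 168 ± 24.9 CPM and 111 ± 7.33 CPM (SD, n = 2 each).

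The balance of SHP-1 to SHP-2 transcripts was steady within each cell type. In TPM, the ratio of Ptpn6 to Ptpn11 was 6.26 and 6.11 in the B1a libraries and 17.1 and 17.3 in the B2 libraries. The means of 6.19 ± 0.112 and 17.2 ± 0.195 (SD, n = 2 each) differed 2.78-fold without overlap (exact two-sided permutation p = 0.33, the smallest possible). Ptpn6 remained the more abundant of the pair per length in all 4 libraries.

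**Figure D2:**
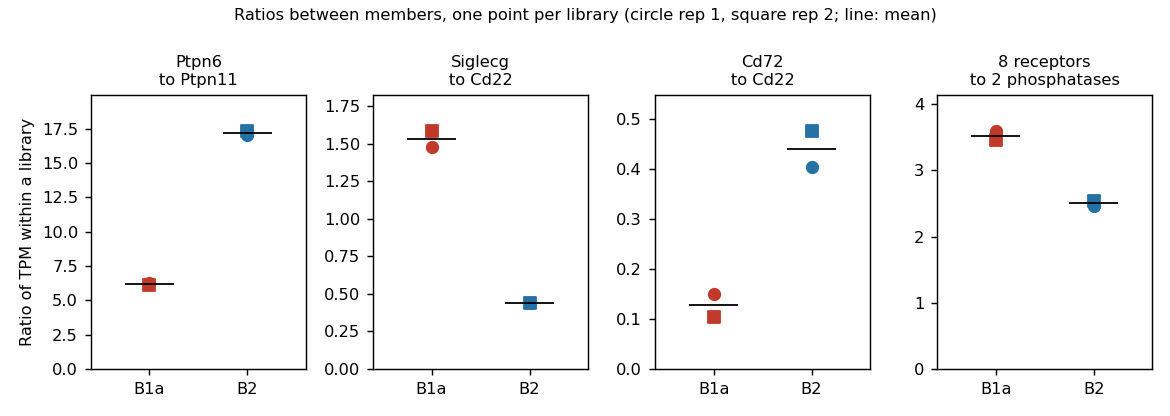
Ratios of TPM within each library (y axes, from 0) for B1a and B2 cells, with a circle for replicate 1, a square for replicate 2 and a line for the mean. The ratio of Ptpn6 to Ptpn11 is 6.19 in B1a and 17.2 in B2 cells, that of Siglecg to Cd22 is 1.53 and 0.439, that of Cd72 to Cd22 is 0.127 and 0.439, and that of the 8 receptors to the 2 phosphatases is 3.53 and 2.50.

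Per transcript length, the order of the 10 genes differed between the cell types. In B1a cells Siglecg led at 809 ± 164 TPM, followed by Cd22 at 531 ± 133 TPM, Ptpn6 at 429 ± 79.0 TPM and Pirb at 227 ± 31.8 TPM (SD, n = 2 each). The ranges of Cd22 and Ptpn6 over the libraries overlapped, although Cd22 was above Ptpn6 within each library. Below them came Cd72 at 69.7 ± 33.9 TPM, Ptpn11 at 69.3 ± 11.5 TPM, Cd300a at 56.8 ± 7.36 TPM, Ceacam1 at 48.1 ± 2.13 TPM, Cd5 at 21.8 ± 4.89 TPM and Lair1 at 0. Ptpn11 and Cd300a also overlapped in range, with Ptpn11 above Cd300a within each library. Cd72 overlapped with Ptpn11, Cd300a and Ceacam1 and changed order with each between the libraries, so it does not differ from them beyond the spread.

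In B2 cells Cd22 led at 1167 ± 81.5 TPM, followed by Ptpn6 at 927 ± 60.5 TPM, Siglecg at 512 ± 35.1 TPM and Cd72 at 510 ± 24.3 TPM (SD, n = 2 each). Siglecg and Cd72 overlapped, changed order between the libraries and do not differ beyond their spread, whereas Cd72 stood far below Siglecg in B1a cells. The lower genes were Pirb at 89.4 ± 13.1 TPM, Ceacam1 at 84.6 ± 5.15 TPM, Cd300a at 83.1 ± 1.77 TPM, Ptpn11 at 53.9 ± 4.13 TPM, Cd5 at 5.23 ± 3.13 TPM and Lair1 at 2.11 ± 0.587 TPM. Pirb, Ceacam1 and Cd300a likewise overlapped and changed order with each other between the libraries. Cd22, Ptpn6, Siglecg and Cd72 thus stood apart above the other 6 genes in B2 cells.

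**Figure D3:**
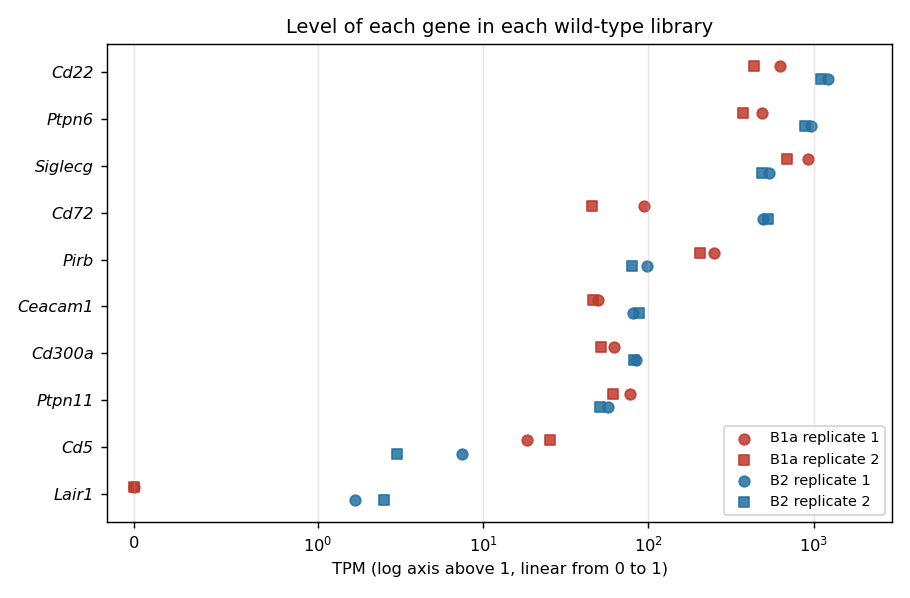
TPM of each gene (x axis, logarithmic above 1 and linear from 0 to 1) in each library, red for B1a and blue for B2 cells, with circles for replicate 1 and squares for replicate 2. Cd22, Ptpn6 and Cd72 lie further right in B2 cells and Siglecg and Pirb in B1a cells, and Lair1 is at 0 in both B1a libraries.

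The make-up of the receptor pool differed between the cell types. The 8 receptors summed to 2024 and 1504 TPM in the B1a libraries and 2527 and 2380 TPM in the B2 libraries. Siglecg made up 45.9% ± 0.250 of the sum in B1a cells and 20.9% ± 0.541 in B2 cells, and Cd22 30.0% ± 1.29 and 47.5% ± 1.30 (SD, n = 2 each). Cd72 made up 3.83% ± 1.13 in B1a cells and 20.8% ± 1.88 in B2 cells, whereas Pirb made up 13.0% ± 0.900 and 3.64% ± 0.380. The shares of these 4 genes did not overlap between the groups. Cd300a held 3.24% ± 0.259 in B1a and 3.39% ± 0.0720 in B2 cells, and Ceacam1 2.77% ± 0.457 and 3.46% ± 0.357, with the Cd300a shares overlapping between the groups. Cd5 took 1.29% ± 0.546 and 0.210% ± 0.119. Lair1 took 0% and 0.0864% ± 0.0276, so neither added much to the pool.

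**Figure D4:**
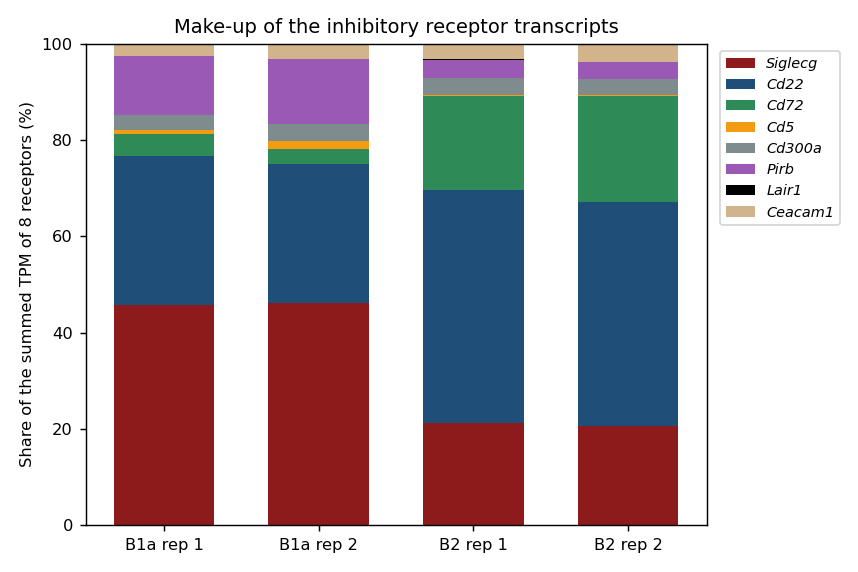
Share of each receptor in the summed TPM of the 8 receptors (y axis, percent), with 1 stacked bar for each library. Siglecg takes 45.9% on average in B1a and 20.9% in B2 cells, and Cd72 3.83% and 20.8%.

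The 2 phosphatases summed to 563 and 435 TPM in the B1a libraries and 1027 and 935 TPM in the B2 libraries. The ratio of the 8 receptors to the 2 phosphatases was 3.60 and 3.46 in B1a cells and 2.46 and 2.54 in B2 cells. These ratios, with means of 3.53 ± 0.0962 and 2.50 ± 0.0585 (SD, n = 2 each), differed 1.41-fold without overlap (exact two-sided permutation p = 0.33, the smallest possible). A ratio of transcripts is not a ratio of proteins, which were not measured here.

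Partner genes of the pathway were taken from 5 lists of 88 genes, 81 of which were tested. Of these, 22 passed, 16 as higher in B1a cells and 6 as higher in B2 cells, against 5.74% of all genes tested. Without B1a replicate 1 there were 44 that passed, and without B1a replicate 2 there were 53, with more genes passing in each of the 5 lists. The lists are described by these counts, and no test of a list was made.

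Of 17 other inhibitory receptors tested, 2 were higher in B1a cells and none in B2 cells, where 5.74% of all genes passed in either direction, and their median log2 fold change was -0.27 against -0.03 for all genes. Sirpa encodes the CD47 receptor that inhibits phagocytosis, and measured 256 and 196 CPM in B1a cells and 21.4 and 23.9 CPM in B2 cells. On the log2 scale the difference was 3.32 (SE 0.21, edgeR quasi-likelihood adjusted p = 0.00152). Cd300lf, a relative of Cd300a, measured 76.9 and 82.6 CPM in B1a cells and 10.3 and 5.28 CPM in B2 cells. The fitted log2 fold change was 3.36 (SE 0.40, edgeR quasi-likelihood adjusted p = 0.00904). Both genes are also known from macrophages, whose summed markers were higher in the B1a libraries by the values given above. Summed mast cell markers were higher there too. The part of either cell type in these results was not tested. The most abundant of the list that did not pass were Btla, the inhibitory receptor for HVEM, and Pecam1, an adhesion receptor with ITIMs. Their log2 fold changes were -0.81 and -0.27 (edgeR quasi-likelihood adjusted p = 0.123 and 0.337). Btla passed in 5 of 10 alternatives that kept all libraries, among them DESeq2 (adjusted p = 0.00241), and Pecam1 in 0.

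The kinases that phosphorylate the receptor tails, and their regulators, went in both directions. Of 13 tested, 3 were higher in B1a cells, Blk and Syk among them, whereas Fyn and Pag1 were higher in B2 cells. The median log2 fold change was -0.10, and 5.74% of all genes tested passed in either direction. Lyn, the kinase most tied to ITIM phosphorylation in B cells, measured 679 and 701 CPM in B1a cells and 550 and 658 CPM in B2 cells. It did not pass (log2 fold change 0.19, SE 0.13, edgeR quasi-likelihood adjusted p = 0.472), and its difference changed sign on the TPM scale. Syk, the kinase that carries the activating signal, measured 2248 and 2275 CPM in B1a cells and 1280 and 1337 CPM in B2 cells. This was a log2 fold change of 0.79 (SE 0.09, edgeR quasi-likelihood adjusted p = 0.0087). Blk, a B cell Src family kinase, averaged 789 ± 88.5 CPM in B1a and 446 ± 25.4 CPM in B2 (SD, n = 2 each), and the log2 fold change was 0.82 (edgeR quasi-likelihood adjusted p = 0.0212). Syk and Blk did not pass on the TPM scale with a pseudocount of 1, where the adjusted p from limma was 0.0522 and 0.0741.

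The membrane adaptor that brings the Src inhibitor CSK to the membrane was lower in B1a cells. Pag1 measured 63.4 and 46.4 CPM in B1a cells and 357 and 363 CPM in B2 cells. Expressed as a log2 fold change, this was -2.71 (SE 0.19, edgeR quasi-likelihood adjusted p = 0.00221). Fyn, another Src family kinase, averaged 23.2 ± 3.69 CPM in B1a and 70.2 ± 1.03 CPM in B2 (SD, n = 2 each), and the log2 fold change was -1.60 (edgeR quasi-likelihood adjusted p = 0.0255). Without B2 replicate 1 and without B2 replicate 2 the adjusted p of Fyn from this test was 0.133 and 0.153. Csk itself did not pass (398 ± 17.4 CPM against 539 ± 17.9 CPM, SD, n = 2 each, log2 fold change -0.44, edgeR quasi-likelihood adjusted p = 0.0928). Csk passed in 5 of 10 alternatives that kept all libraries, among them DESeq2 (adjusted p = 0.00658).

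Of 17 other phosphatases tested, 7 were higher in B1a and 2 in B2 cells, against 4.24% and 1.5% of all genes tested. The median log2 fold change of the list was 0.82. Without B2 replicate 1 there were 5 that passed and without B2 replicate 2 there were 6, whereas without B1a replicate 1 there were 14 and without B1a replicate 2 there were 12. Ptpn22, which encodes a phosphatase that acts on Src and Syk family kinases, measured 435 and 377 CPM in B1a cells and 50.3 and 58.7 CPM in B2 cells. The test gave a log2 fold change of 2.90 (SE 0.16, edgeR quasi-likelihood adjusted p = 0.0013). Ptprj encodes the receptor phosphatase CD148, and measured 1367 and 1234 CPM in B1a cells and 457 and 449 CPM in B2 cells. On the log2 scale the difference was 1.52 (SE 0.11, edgeR quasi-likelihood adjusted p = 0.00226). Ubash3b, which encodes the SYK-directed phosphatase STS-1, averaged 70.6 ± 11.6 CPM and 19.9 ± 1.65 CPM (SD, n = 2 each), and the log2 fold change was 1.82 (edgeR quasi-likelihood adjusted p = 0.0190, and 0.0673 without B2 replicate 1). Ptpn1, which encodes PTP1B, averaged 328 ± 27.0 CPM and 186 ± 8.41 CPM (SD, n = 2 each), and the log2 fold change was 0.82 (edgeR quasi-likelihood adjusted p = 0.0254, and 0.0629 and 0.136 without B2 replicate 1 and without B2 replicate 2). Neither Ubash3b nor Ptpn1 passed on the TPM scale with a pseudocount of 1 (limma adjusted p = 0.0614 and 0.0948). The other 3 that were higher in B1a cells, Inppl1, Inpp4b and Ptpn18, were named after their values were seen and had adjusted p-values of 0.0362, 0.0423 and 0.0380 in the same test.

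Dusp2 was among the phosphatases of this list that were higher in B2 cells. It encodes a MAP kinase phosphatase and measured 54.4 and 47.5 CPM in B1a cells and 279 and 270 CPM in B2 cells. The fitted log2 fold change was -2.43 (SE 0.16, edgeR quasi-likelihood adjusted p = 0.00159). Inpp5d, which encodes the lipid phosphatase SHIP-1 that acts downstream of the inhibitory Fc receptor, measured 397 and 429 CPM in B1a cells and 449 and 444 CPM in B2 cells and did not pass (log2 fold change -0.11, edgeR quasi-likelihood adjusted p = 0.660). Ptprc, which encodes CD45, did not pass either (log2 fold change -0.40, edgeR quasi-likelihood adjusted p = 0.162). Ptprc passed in 3 of 10 alternatives that kept all libraries, and Inpp5d in 0.

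Of 17 adaptors and substrates tested, 1 was higher in B1a and 1 in B2 cells, against the same 5.74% of all genes, with a median log2 fold change of -0.16. Cd79a, the signalling chain of the B cell receptor, averaged 1709 ± 67.3 CPM and 1179 ± 39.5 CPM (SD, n = 2 each), and the log2 fold change was 0.53 (edgeR quasi-likelihood adjusted p = 0.0349). This call ended with upper quartile factors (edgeR adjusted p = 0.0530), on the TPM scale (limma adjusted p = 0.183 with a pseudocount of 1) and without either B2 replicate (edgeR adjusted p = 0.101 and 0.194). Pik3ap1, the adaptor BCAP that links the receptor to PI3 kinase, measured 162 and 108 CPM in B1a cells and 355 and 353 CPM in B2 cells. This was a log2 fold change of -1.39 (SE 0.21, edgeR quasi-likelihood adjusted p = 0.0201). Cd79b, the other signalling chain, did not pass, at a log2 fold change of 0.37 (edgeR quasi-likelihood adjusted p = 0.125). Cd79b passed in 4 of 10 alternatives that kept all libraries, among them DESeq2 (adjusted p = 0.0052), so its call depends on the test.

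Ligands and the enzymes of sialic acid make up the last list. Of 17 tested, 3 were higher in B1a and 1 in B2 cells, where 5.74% of all genes passed in either direction. The median log2 fold change was 0.36. Sema4d, which encodes the CD72 ligand CD100, measured 164 and 214 CPM in B1a cells and 364 and 367 CPM in B2 cells. Expressed as a log2 fold change, this was -0.96 (SE 0.16, edgeR quasi-likelihood adjusted p = 0.0292), in the direction of Cd72. The class I genes H2-K1 and H2-D1, whose products are ligands of PIR-B, had log2 fold changes of 0.67 and 0.81 (edgeR quasi-likelihood adjusted p = 0.0213 and 0.0198), in the direction of Pirb, but neither passed on the TPM scale with a pseudocount of 1 (limma adjusted p = 0.109 and 0.0950). H2-K1 and H2-D1 are similar in sequence to each other and to other class I genes, between which reads may have been divided. B2m, their light chain, did not pass (log2 fold change 0.59, edgeR quasi-likelihood adjusted p = 0.121). B2m passed in 4 of 10 alternatives that kept all libraries, among them DESeq2 (adjusted p = 0.00379).

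St3gal1, a sialyltransferase that caps O-glycans, averaged 784 ± 83.6 CPM in B1a and 319 ± 18.2 CPM in B2 (SD, n = 2 each). The test gave a log2 fold change of 1.30 (SE 0.13, edgeR quasi-likelihood adjusted p = 0.00513). Cmah, which makes the N-glycolyl form of sialic acid that mouse CD22 prefers, measured 1262 and 1047 CPM in B1a cells and 1172 and 1172 CPM in B2 cells. The groups overlapped, and the test did not pass it (log2 fold change -0.02, SE 0.12, edgeR quasi-likelihood adjusted p = 0.947).

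**Figure D5:**
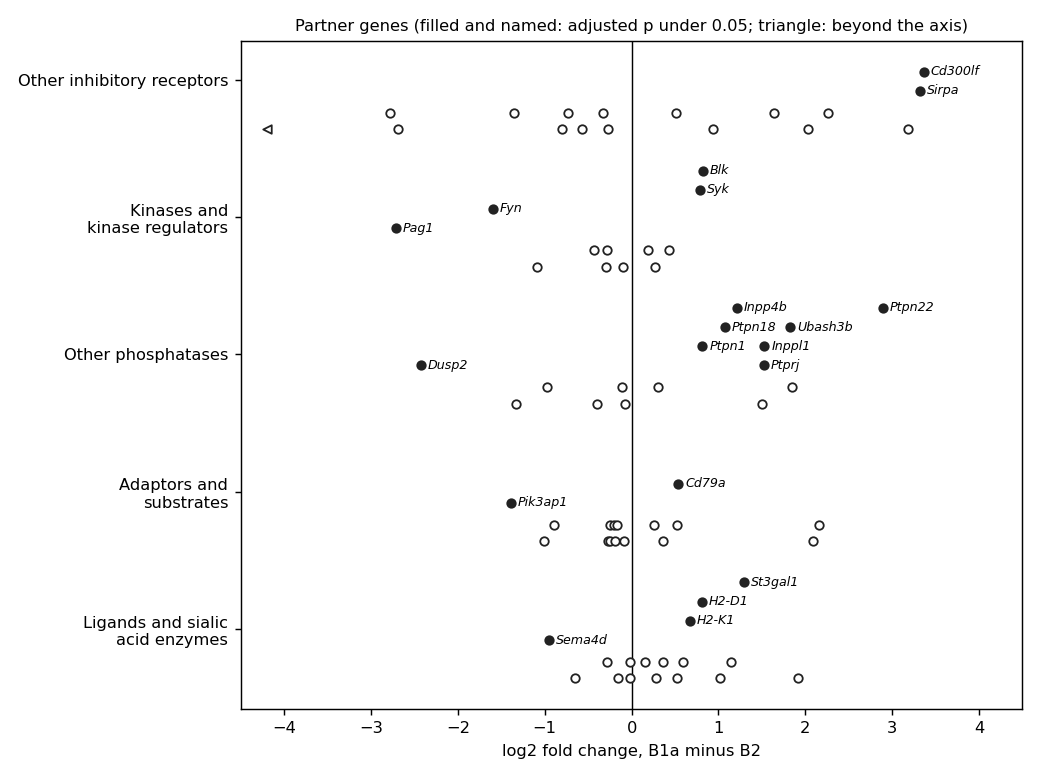
Log2 fold change of B1a minus B2 (x axis) for 78 tested genes of the 5 partner lists, with filled and named points for an adjusted p under 0.05 and open points for the rest. In the phosphatase list 7 named points lie to the right, Ptpn22 furthest at 2.90, and Dusp2 to the left at -2.43, and a triangle marks 1 gene beyond the left end of the axis.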

How the data were processed

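Reads of sorted cells were aligned to mm10 and quantified by the authors with RSEM against RefSeq genes (RSEM 1.2.29 in the submitters' processing notes; the methods give another version). The deposited expected counts are not normalized, and a read that could come from more than 1 entry is shared out among them. The authors' deposited TPM values sum to about 1000000 in every library and were used for levels between genes, and the deposited FPKM for the order of the genes as an alternative. A further deposited column, a signal value giving the posterior SD of each count, was used only as a check of divided reads and was at most 1.34% of the count for the 10 genes.

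Expected counts of 21970 entries were summed to 20599 symbols, rounded, filtered with filterByExpr (12078 genes), scaled by TMM (factors 0.963 to 1.05) and tested with edgeR 4.0.16 (glmQLFit, glmQLFTest) in R 4.3.3, without a replicate block, at a Benjamini-Hochberg adjusted p of 0.05 over all tested genes. Standard errors were derived from the F statistic. The study names EBSeq, which was not run here. CPM values are TMM-scaled, and depth was 11032732 to 18588623 counts a library. Samples were grouped by their titles. Alternatives were DESeq2 1.42.0, upper quartile factors, limma-voom (limma 3.58.1) with and without cell type weights, filters of 10 counts in every library or 1 in any, limma on log2(TPM + 1) and log2(TPM + 0.1) (mean TPM of 1 or more), unsummed entries, a replicate block and each library left out. The tests were tested on simulated data. The members and gene lists were chosen with earlier results of these data known. Named partner genes were, in each list, up to 6 genes with the smallest adjusted p among those that passed and up to 2 of the most abundant others. Marker lists of T, NK, dendritic, mast, plasma and erythroid cells, neutrophils, platelets, macrophages and B cells were summed. Sequences came from RefSeq (GRCm38.p6 promoters) and GENCODE M21 (GRCm38), without amino acid sequences. Some genes of these lists are counted but not reported one by one here.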

Additional observations from a re-analysis of the deposited data

How the results depend on the processing

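In 10 alternatives other than leaving out a library, Cd72, Pirb and Ptpn6 passed in all 10, and Siglecg and Cd22 in 8, with adjusted p-values of 0.122 for Siglecg and 0.0600 for Cd22 on log2(TPM + 0.1). Of the genes that did not pass in the main test, Cd5 passed in 2 of these alternatives and Ptpn11 in 1. None of the 10 genes changed direction. With a library left out, the log2 fold change ran from 0.70 to 1.08 for Siglecg and from 1.45 to 1.73 for Pirb. For Cd22 it ran from -1.15 to -0.67, for Cd72 from -3.20 to -2.30 and for Ptpn6 from -1.05 to -0.71. Such fits leave 1 library in a group, whose spread is taken from the other group, so calls in them are not read as support. Members that passed numbered 3 on log2(TPM + 0.1), and those higher in B1a cells 4 with limma-voom weighted by cell type and 1 on either TPM scale, so counts of members depend on the test. With a library left out, 5 to 10 members passed, 2 to 4 of them higher in B1a cells and 3 to 6 in B2 cells. All genes that passed (693, 512 higher in B1a and 181 in B2 cells) became 1562 (1011 and 551) with DESeq2, 1415 (1054 and 361) with cell type weights, 1141 (779 and 362) with a filter of 1 count in any library, 359 (196 higher in B1a cells) on log2(TPM + 0.1), and 547 to 6241 (400 to 2734 and 145 to 3507) with a library left out, the highest each without B1a replicate 2. Those higher in B1a cells were 266 on log2(TPM + 1), and those higher in B2 cells 278 with limma-voom and 279 with 10 counts in every library. Partner genes that passed were 35 with DESeq2, 34 with cell type weights, 12 and 10 on the TPM scales, and 17 to 53 with a library left out, the highest without B1a replicate 2.

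With the replicate number as a block, 1481 genes passed (889 and 592) and the same number of members (5). The numbers come from the titles, which state no pairing, and deviations of same-numbered libraries did not correlate (r = -0.0347), so the samples share only a number. The log2 difference of the ratio of 8 receptors to 2 phosphatases was 0.28 from counts in place of TPM, against 0.50. Leaving out a library moved 0 to 4 members in the order of B1a cells and 2 to 5 in that of B2 cells. The log2 fold change of Cmah ran from -0.16 to 0.11 with a library left out, the latter without B1a replicate 2, and that of Lyn -0.0413 and -0.0414 on the TPM scales with pseudocounts of 1 and 0.1. The causes were not tested. With 2 libraries a group, exact tests cannot pass, a biological coefficient of variation of 0.507 limits the calls, and Lair1 and Cd5 rest on few counts. Other summed markers, in B1a and then B2 libraries, were 0 and 0.989 against 2.69 and 10.9 CPM for neutrophils. The sums were 3.14 and 0.360 against 6.85 and 6.33 CPM for NK cells and 40.5 and 80.2 against 60.5 and 40.4 CPM for dendritic cells. For platelets they were 0 and 3.60 against 3.99 and 0.836 CPM, and for plasma cells 22.6 and 49.9 against 21.1 and 31.9 CPM. Of the 3 plasma cell markers tested, Prdm1 passed as higher in B1a cells and 2 did not pass. Prdm1 stood at 22.4 and 36.2 CPM against 4.16 and 4.13 CPM (edgeR quasi-likelihood adjusted p = 0.0346).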
